A study of Mus musculus with 9 samples.

Results

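The insulin-like growth factor (IGF) system was examined in the chromatin of primary oviductal muscle cells. Its 10 genes were taken by name: the ligands Igf1 and Igf2, the receptors Igf1r and Igf2r, and the binding proteins Igfbp2, Igfbp3, Igfbp4, Igfbp5, Igfbp6 and Igfbp7. They are 10 of 21853 protein-coding genes of the annotation, and the rule that names them uses no measured value. A gene's window was its body with 50 kb on either side. Of 678392 peaks in the 6 replicate lists, 764 overlapped a member's window. The 2 pooled lists, which the authors called on all 3 replicates of a mark together, added 97 H3K27ac and 133 H3K4me1 peaks. A peak was a promoter peak if it reached within 1 kb of an annotated start of the gene, an intragenic peak if it otherwise overlapped the gene body, and a flanking peak if it lay outside. The windows of Igfbp2 and Igfbp5 overlap, so that most of their peaks were the same.

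The cells came from WT mice aged 8 to 12 weeks on Day 2 of pregnancy, and every group shared this source. Oviducts were digested with trypsin, collagenase and dispase, filtered, and plated for some hours in medium with fetal bovine serum before fixation, and each library was made from 50000 cells. ChIC-Seq was used, in which an antibody brings protein A-MNase to its target and the cut fragments are sequenced, with 3 H3K27ac libraries, 3 H3K4me1 libraries and 3 IgG controls. The labels do not say whether the replicates were separate animals, so any p-value measures only the spread between these lists, which may be technical.

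IGF1 and IGF2 are growth factors that act through the receptor tyrosine kinase encoded by Igf1r. Igf2r encodes the cation-independent mannose-6-phosphate receptor, which takes IGF2 up for degradation. The binding proteins hold the ligands outside the cell and limit or prolong their action, and IGFBP7 binds them only weakly. Igf2 and Igf2r are imprinted genes in the mouse, and in many organs Igf1 is made by stromal and muscle cells under the control of growth hormone or estrogen. H3K27ac marks active promoters and enhancers, and H3K4me1 marks enhancers and the shoulders of active promoters.

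The sequences of 4 promoters are shown because the members differed in both the marks and the base composition of their starts. Each is the 250 bases before a RefSeq start on GRCm38.p6, read 5′ to 3′ on the gene's strand. Capitals mark 7 motifs on either strand. They are the TATA box TATAAA, the promoter element CCAAT, the GC box with the letters GGGCGG, the AP-1 site written TGACTCA, the TEAD site read as CATTCC, the steroid receptor half-site TGTTCT and the CArG box of serum response factor.
Igf1r promoter, chr7:67952007-67952256, plus strand: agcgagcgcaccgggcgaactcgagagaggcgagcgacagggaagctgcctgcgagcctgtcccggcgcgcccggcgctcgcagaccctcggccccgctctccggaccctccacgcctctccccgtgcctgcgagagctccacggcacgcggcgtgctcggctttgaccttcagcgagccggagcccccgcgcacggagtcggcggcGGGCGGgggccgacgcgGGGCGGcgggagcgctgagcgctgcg
Igfbp4 promoter, chr11:99040994-99041243, plus strand: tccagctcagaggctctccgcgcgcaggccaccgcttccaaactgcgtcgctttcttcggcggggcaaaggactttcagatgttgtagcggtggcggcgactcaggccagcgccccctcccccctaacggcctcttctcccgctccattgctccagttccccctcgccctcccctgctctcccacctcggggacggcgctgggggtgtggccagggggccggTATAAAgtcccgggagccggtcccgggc
Igfbp6 promoter, chr15:102143936-102144185, plus strand: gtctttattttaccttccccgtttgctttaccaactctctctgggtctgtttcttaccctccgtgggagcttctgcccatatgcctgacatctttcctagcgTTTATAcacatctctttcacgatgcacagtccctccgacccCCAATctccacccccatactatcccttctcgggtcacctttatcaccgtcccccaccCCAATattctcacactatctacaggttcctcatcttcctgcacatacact
Igf2 promoter, chr7:142657497-142657746, minus strand: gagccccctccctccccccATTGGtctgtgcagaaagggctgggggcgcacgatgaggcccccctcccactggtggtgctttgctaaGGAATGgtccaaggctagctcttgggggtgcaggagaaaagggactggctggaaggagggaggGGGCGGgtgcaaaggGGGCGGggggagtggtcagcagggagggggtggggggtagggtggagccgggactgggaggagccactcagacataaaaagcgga
The Igf1r promoter had 76.0% G and C over the 300 bases of the RefSeq window and a ratio of observed to expected CpG of 1.11, above that of 98.2% of 32841 promoters. It held 2 GC boxes, a motif found in 32.7% of all promoters over the same 250 bases. The Igfbp4 and Igfbp6 promoters each held 1 TATA box, which 12.4% of promoters held, and the Igfbp6 promoter had 2 CCAAT matches, a motif of 33.9% of promoters. The Igfbp6 window was 49.7% G and C with a CpG ratio of 0.614. The Igf2 promoter shown, the most downstream of 4 RefSeq starts, held 2 GC boxes. Another Igf2 start held 1 CArG box, which 1.47% of promoters held. All 10 members had at least 1 RefSeq promoter, with 14 promoters in all, of which 6 held a GC box, 2 the TATA box, 3 CCAAT, 4 CATTCC, 2 TGTTCT and 1 TGACTCA. Overlapping matches of different motifs were counted separately. A match describes the letters only.

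The next sequences are the middle 300 bases of stretches that lay under a peak in all 6 replicate lists, 3 of H3K27ac and 3 of H3K4me1. The member windows held 27 such stretches, of which 6 are shown, because both marks and every list met on them. They are the longest of each member, except that the second of Igfbp6 stands in for a longer one at the neighbouring gene Tns2, and are read on the strand of the member. Capitals mark the same motifs.
Igf1 region, chr10:87926082-87926381, plus strand: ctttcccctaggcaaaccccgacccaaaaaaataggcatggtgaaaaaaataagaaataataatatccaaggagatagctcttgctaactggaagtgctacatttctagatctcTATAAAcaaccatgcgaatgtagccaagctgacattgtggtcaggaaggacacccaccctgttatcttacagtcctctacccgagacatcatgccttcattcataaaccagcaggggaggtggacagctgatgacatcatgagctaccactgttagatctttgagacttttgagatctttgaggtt
Igf1r region, chr7:68021957-68022256, plus strand: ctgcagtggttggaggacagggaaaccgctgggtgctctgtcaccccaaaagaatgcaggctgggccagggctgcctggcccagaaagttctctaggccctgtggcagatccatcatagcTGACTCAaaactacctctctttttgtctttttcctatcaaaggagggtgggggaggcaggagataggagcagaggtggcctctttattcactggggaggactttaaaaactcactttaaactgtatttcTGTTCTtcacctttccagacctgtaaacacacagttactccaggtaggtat
Igf2r region, chr17:12792349-12792648, minus strand: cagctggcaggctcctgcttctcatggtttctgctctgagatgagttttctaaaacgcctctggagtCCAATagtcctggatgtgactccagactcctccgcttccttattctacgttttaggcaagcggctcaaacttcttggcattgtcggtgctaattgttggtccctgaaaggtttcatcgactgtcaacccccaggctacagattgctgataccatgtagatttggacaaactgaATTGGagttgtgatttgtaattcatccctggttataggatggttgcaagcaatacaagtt
Igfbp4 region, chr11:99044154-99044453, plus strand: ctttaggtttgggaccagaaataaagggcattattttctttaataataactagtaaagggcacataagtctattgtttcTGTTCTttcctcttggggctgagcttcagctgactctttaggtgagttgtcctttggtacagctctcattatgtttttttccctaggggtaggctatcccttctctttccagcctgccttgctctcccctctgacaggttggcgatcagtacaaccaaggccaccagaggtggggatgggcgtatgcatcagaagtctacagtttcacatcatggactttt
Igfbp6 region, chr15:102145529-102145828, plus strand: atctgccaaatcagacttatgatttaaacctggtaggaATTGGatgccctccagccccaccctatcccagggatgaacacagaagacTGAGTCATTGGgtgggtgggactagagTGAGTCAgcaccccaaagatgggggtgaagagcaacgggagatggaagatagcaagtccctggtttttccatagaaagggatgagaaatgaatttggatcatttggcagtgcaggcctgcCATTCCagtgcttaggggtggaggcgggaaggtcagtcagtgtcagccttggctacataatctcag
Igfbp7 region, chr5:77404024-77404323, minus strand: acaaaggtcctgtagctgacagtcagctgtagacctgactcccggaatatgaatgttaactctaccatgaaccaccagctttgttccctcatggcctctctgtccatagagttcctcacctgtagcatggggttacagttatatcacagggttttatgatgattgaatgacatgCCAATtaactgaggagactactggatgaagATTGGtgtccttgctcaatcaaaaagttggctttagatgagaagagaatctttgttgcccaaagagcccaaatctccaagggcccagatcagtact
The Igf1 stretch was in an intron, 68.0 kb downstream of the gene's most upstream start, and 2158 bp long. The Igf1r stretch was intronic at 69.3 kb and held 1 AP-1 site. The Igf2r stretch was 22.8 kb upstream of the Igf2r start, in an intron of Airn, the noncoding RNA that runs across Igf2r on the other strand, and held 2 CCAAT matches. The Igfbp4 stretch was intronic at 3.06 kb. The Igfbp6 stretch was intronic at 1.32 kb, reached into the promoter window, and held 2 AP-1 sites. The Igfbp7 stretch was intronic at 3.87 kb and 3743 bp long, and held 2 CCAAT matches. For comparison, 9095 stretches of at least 300 bp outside promoters were covered by all 6 lists over the genome, and their middle 300 bases held the AP-1 site in 9.10%, CCAAT in 34.2%, CATTCC in 16.7%, TGTTCT in 28.9%, TATAAA in 27.9%, the GC box in 3.23% and the CArG box in 1.97%.

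The H3K27ac libraries had 40551842 to 42040809 fragments, the H3K4me1 libraries 41891318 to 78891920 and the IgG libraries 3110985 to 3713369. By values averaged over each region, peaks were weak in every replicate list, with a median fold enrichment over local background of 1.43 to 1.62. Of the peaks in a list, 81.0% to 88.9% had a −log10 p-value under 1.3. One IgG library served H3K27ac replicate 2 with H3K4me1 replicates 1 and 2, and another served replicate 3 of both marks. Of the marker genes, 5 of 10 of smooth muscle (Acta2, Des, Smtn, Tpm1 and Cald1) and 7 of 8 of stroma and fibroblasts had both marks at the promoter in all 6 lists, as 24.3% of all protein-coding genes did. So did 0 of 10 of oviduct epithelium, 0 of 8 of blood and 0 of 6 of endothelium. Some of these had 1 mark in all 3 lists, namely Ptprc of blood and Emcn of endothelium H3K27ac, and Krt8 of epithelium H3K4me1. H3K27ac was in all 3 lists at the same 5 of the 10 smooth muscle markers, near the share of 45.9% of all genes. The smooth muscle marker Myh11 had a promoter peak in 0 of 3 H3K27ac lists. Fibroblast markers were thus marked beside those of muscle, and in such bulk samples fewer cells of a type cannot be told apart from a weaker mark per cell. Which cells carried the marks at the IGF genes was not tested.

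At the promoters, H3K27ac was present in all 3 lists at 5 of the 10 members, namely Igf1, Igf1r, Igfbp4, Igfbp6 and Igfbp7. Among all protein-coding genes 45.9% met the same criterion, so that the members' share was near the background. H3K4me1 was present in all 3 lists at 3 members, Igf1, Igfbp4 and Igfbp6, against 27.9% of all genes. The same 3 members had both marks in all 6 lists, against 24.3% of all genes. Igf2 alone had neither mark in any list, a state shared by 32.8% of all genes. Another 4 members were marked in some lists only. Igf2r had promoter peaks in 2 of 3 H3K27ac lists and 1 of 3 H3K4me1 lists, Igfbp2 in 1 and 2, Igfbp3 in 0 and 1, and Igfbp5 in 0 and 1. Restricted to peaks whose −log10 p-value reached 2, no member had a promoter peak in any of the 6 replicate lists. Of all genes, 12.1% had at least 1 there. In the pooled lists, promoter peaks at Igf1, Igf1r, Igfbp6 and Igfbp7 for H3K27ac and at Igfbp6 for H3K4me1 reached 2. Within 250 bp of a start 1 member had both marks in all 6 lists, against 10.1% of all genes.

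**Figure D1:**
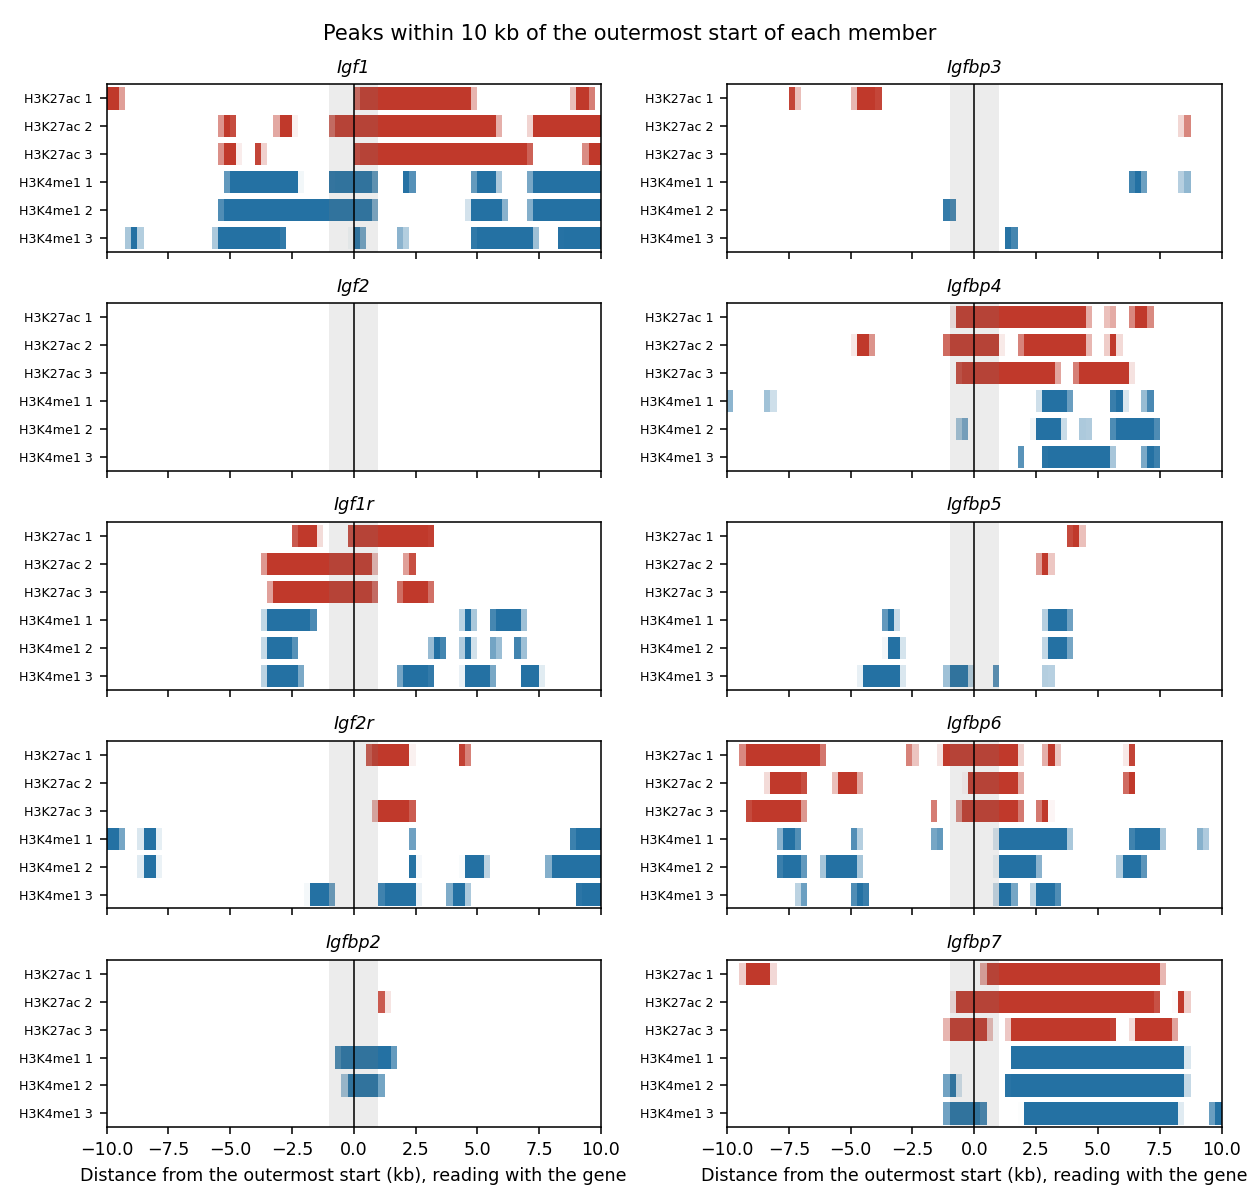
Peaks within 10 kb of the most upstream start of each member, 1 row per replicate list, with H3K27ac in red and H3K4me1 in blue, the start as a line and the promoter window as a grey band. The horizontal axis is the distance in kb along the gene, and fainter bins of 250 bp are covered in part. H3K27ac lies on the starts of Igf1r, Igfbp4 and Igfbp6 with H3K4me1 beside it, and the Igf2 panel is empty.

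Igf1, the main ligand after birth, had the highest mean H3K4me1 coverage of its window among the members, although Igfbp7 was higher in replicate 3, and the most distal regions with both marks. Its 8 annotated starts on chromosome 10 were all within 1 kb of H3K27ac in each list. The H3K27ac peak over them was 4787, 6791 and 7183 bp long in replicates 1, 2 and 3. Its fold enrichment was 2.27, 1.97 and 1.94, above 98.4%, 92.6% and 90.1% of the peaks of those lists. H3K4me1 also reached the promoter in every list. The H3K4me1 peak touching the most upstream start was 1935, 6354 and 428 bp long in replicates 1, 2 and 3, and only 3, 2 and 1 of the 8 starts lay inside an H3K4me1 peak, against 7, 8 and 7 inside an H3K27ac peak. H3K27ac covered 47.2% and 49.3% of the promoter window of the first start in replicates 1 and 3, and in replicate 2 it also ran upstream and covered 97.1%. H3K4me1 covered 96.7%, 95.2% and 21.4% of the same window in replicates 1, 2 and 3. Both marks met over 359 bp at the first start in all 6 lists.

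The first start lies inside Igf1os, an antisense gene, whose own starts had peaks of both marks in all 3 lists of each, and fragments do not tell the strands apart. The body of Igf1 was covered by H3K27ac over 30.7%, 35.8% and 32.3% of its 78.8 kb. H3K4me1 covered 52.6%, 63.9% and 57.7%, so that every H3K4me1 list was above every H3K27ac list. The longest stretch in all 6 lists, whose middle is printed above, lay at chr10:87925153-87927310. The peaks over it had fold enrichments of 1.56, 1.57 and 1.53 for H3K27ac and of 1.74, 1.80 and 1.81 for H3K4me1, the former above 53.0% to 74.3% and the latter above 75.6% to 81.8% of their lists. A second intronic stretch, of 548 bp, lay 43.4 kb from the first start. The pooled H3K4me1 list held a single peak of 18661 bp downstream of the starts.

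Igf2, the fetal ligand, stood at the other end. None of its 7 starts had a peak of either mark within 1 kb in the 6 replicate lists or the 2 pooled ones. No peak overlapped its body in any of these lists. The peaks in its window were 31462 bp or more upstream of the gene. H3K4me1 had a peak there of 2211, 1992 and 1542 bp in replicates 1, 2 and 3, with fold enrichments of 1.71, 1.67 and 1.65, at a start annotated to Ins2, an insulin gene. H3K27ac had 1 peak at that place, of 665 bp in replicate 1, and none in the window in replicates 2 and 3. The 3 H3K4me1 lists therefore held the flanking peak while 1 of 3 H3K27ac lists did. Igf2os, antisense to Igf2, had no peak in its body in any list.

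**Figure D2:**
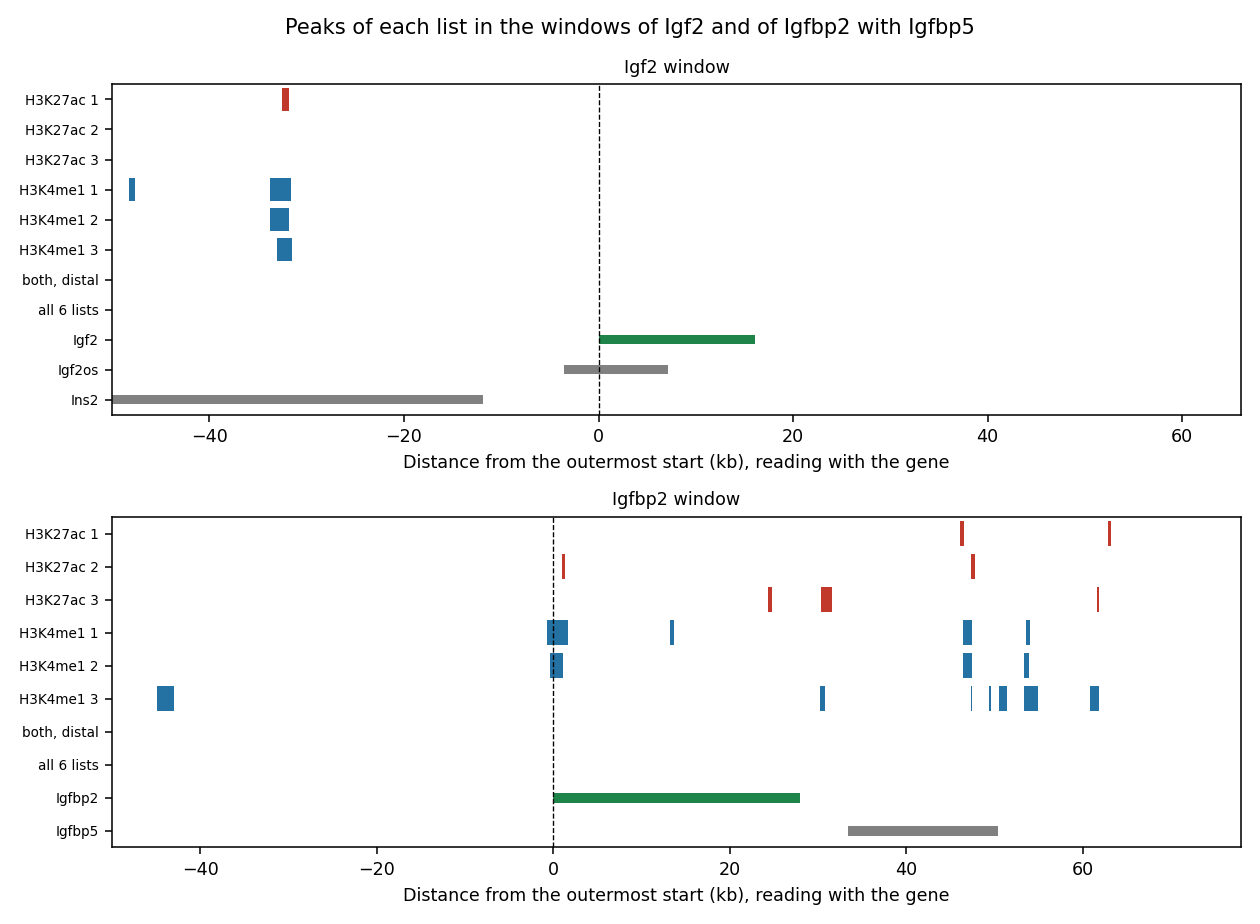
Peaks in the window of Igf2 and in that of Igfbp2, which contains Igfbp5. Each row is a replicate list, followed by joined distal regions that hold both marks and stretches in all 6 lists, both empty here, and by gene bodies (member in green), and the axis is the distance in kb from the most upstream start. The Igf2 body holds no peak, and the Igfbp2 panel has a few short peaks. There the H3K27ac peaks vary in position between lists, and some H3K4me1 peaks lie at the same place in every H3K4me1 list.

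Igf1r, the signalling receptor, had H3K27ac without H3K4me1 at its start. Its annotated GENCODE start lay inside an H3K27ac peak of 3472, 4469 and 4308 bp in replicates 1, 2 and 3, with fold enrichments of 1.96, 1.79 and 1.96. H3K4me1 was absent within 1 kb of that start in all 3 lists and in the pooled list. The nearest H3K4me1 edge was 1546 and 2309 bp upstream in replicates 1 and 2 and 1842 bp downstream in replicate 3. The start was thus flanked by H3K4me1 rather than covered. Upstream, the marks met in all 6 lists over 150 bp at 2.38 kb before the start.

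The body of Igf1r, 280.8 kb long, was covered by H3K4me1 over 19.5%, 15.0% and 14.4% and by H3K27ac over 4.399%, 5.13% and 6.74% in replicates 1, 2 and 3. It held 49, 39 and 34 intragenic H3K4me1 peaks against 11, 17 and 18 of H3K27ac, and neither measure overlapped between the marks. At the intronic stretch chr7:68021895-68022317 the H3K27ac fold enrichment was 1.91, 1.70 and 1.77, and that of H3K4me1 2.06, 1.77 and 1.86. At chr7:68128289-68128700, 175.7 kb from the start, it was 1.89, 1.94 and 1.77 for H3K27ac and 2.00, 1.97 and 1.88 for H3K4me1. Both places stood above at least 78.3% of the peaks in every list. Beyond the gene, the starts of Pgpep1l and Fam169b each had H3K4me1 in all 3 lists, and H3K27ac in 1 and 0 lists.

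Igf2r, the clearance receptor, had its peaks beside its start on chromosome 17 and not on it. The start was outside every peak. H3K27ac began 537 bp downstream of it in replicate 1 and 890 bp downstream in replicate 3, with fold enrichments of 1.87 and 1.90, and in replicate 2 the nearest peak was 10332 bp away. An H3K4me1 peak reached the promoter window in replicate 3 only, from 825 bp upstream, with a fold enrichment of 1.59. Inside the gene H3K4me1 formed broad peaks, the longest of 8255, 13616 and 8362 bp in replicates 1, 2 and 3. H3K4me1 covered 23.3%, 27.5% and 20.01% of the body, and H3K27ac 9.20%, 8.04% and 6.35%.

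Both marks met there over 200 bp, 18.96 kb from the start. The H3K4me1 peaks at that place had fold enrichments of 2.46, 2.08 and 2.08, above 99.9%, 98.1% and 98.1% of their lists, and those of H3K27ac had 2.01, 2.05 and 1.88. The place overlaps an exon of Igf2r and lies in an intron of Airn, the imprinted antisense RNA that starts within Igf2r. The promoter of Airn was covered by H3K27ac over 32.2%, 38.9% and 0% and by H3K4me1 over 34.4%, 0% and 36.9% in replicates 1, 2 and 3, so each mark was called there in 2 of 3 lists. The lists carry no allele, and the parental copies cannot be told apart.

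**Figure D3:**
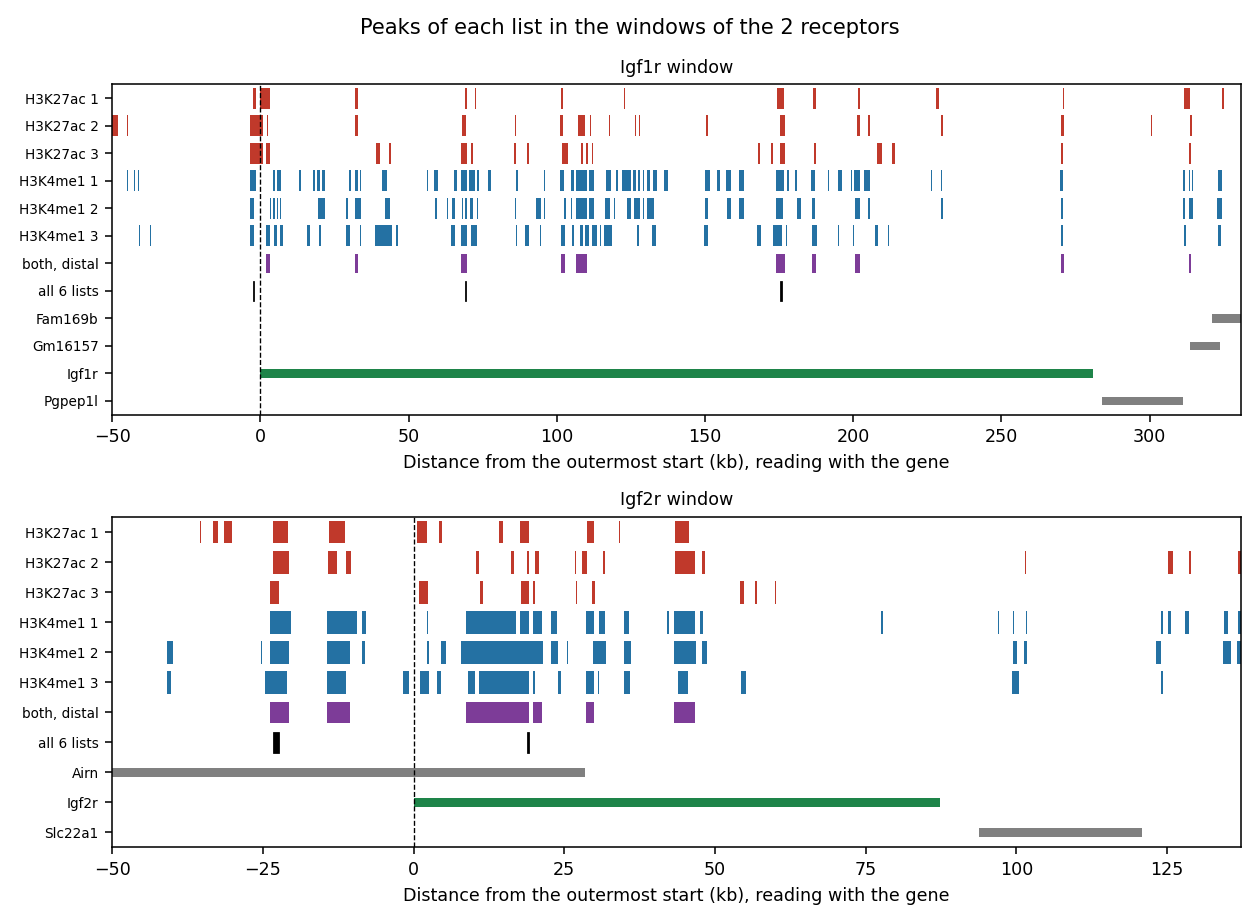
Peaks in the windows of Igf1r and Igf2r, 1 row per replicate list, with joined distal regions that hold both marks in purple, stretches in all 6 lists in black, and gene bodies below (member in green). The axis is the distance in kb from the start. H3K4me1 is spread through the Igf1r body, and Igf2r has broad H3K4me1 and shorter H3K27ac peaks within its purple joined region of 10387 bp.

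Among the binding proteins, Igfbp7 had the highest coverage of its body by both marks. It is a secreted protein of vessel walls and stroma. Its body of 58.8 kb on chromosome 5 was covered by H3K27ac over 62.0%, 46.2% and 52.7% and by H3K4me1 over 63.1%, 60.3% and 70.4% in replicates 1, 2 and 3. The 2 sets of lists overlapped. Both marks met in all 6 lists over 9 stretches with 14178 bp in all, more than at any other member. At the longest, chr5:77402302-77406044 in an intron, fold enrichment was 2.11, 1.99 and 2.14 for H3K27ac and 2.00, 1.97 and 2.02 for H3K4me1, above 93.0% to 96.5% of the lists. At the promoter H3K27ac was present in all lists, but the most upstream start lay 382 bp outside the peak in replicate 1 and inside a peak in replicates 2 and 3. H3K4me1 was within 1 kb of the start in replicates 2 and 3, and its nearest peak in replicate 1 was 1500 bp downstream. In the pooled H3K4me1 list 1 peak ran over 31223 bp of the gene.

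**Figure D4:**
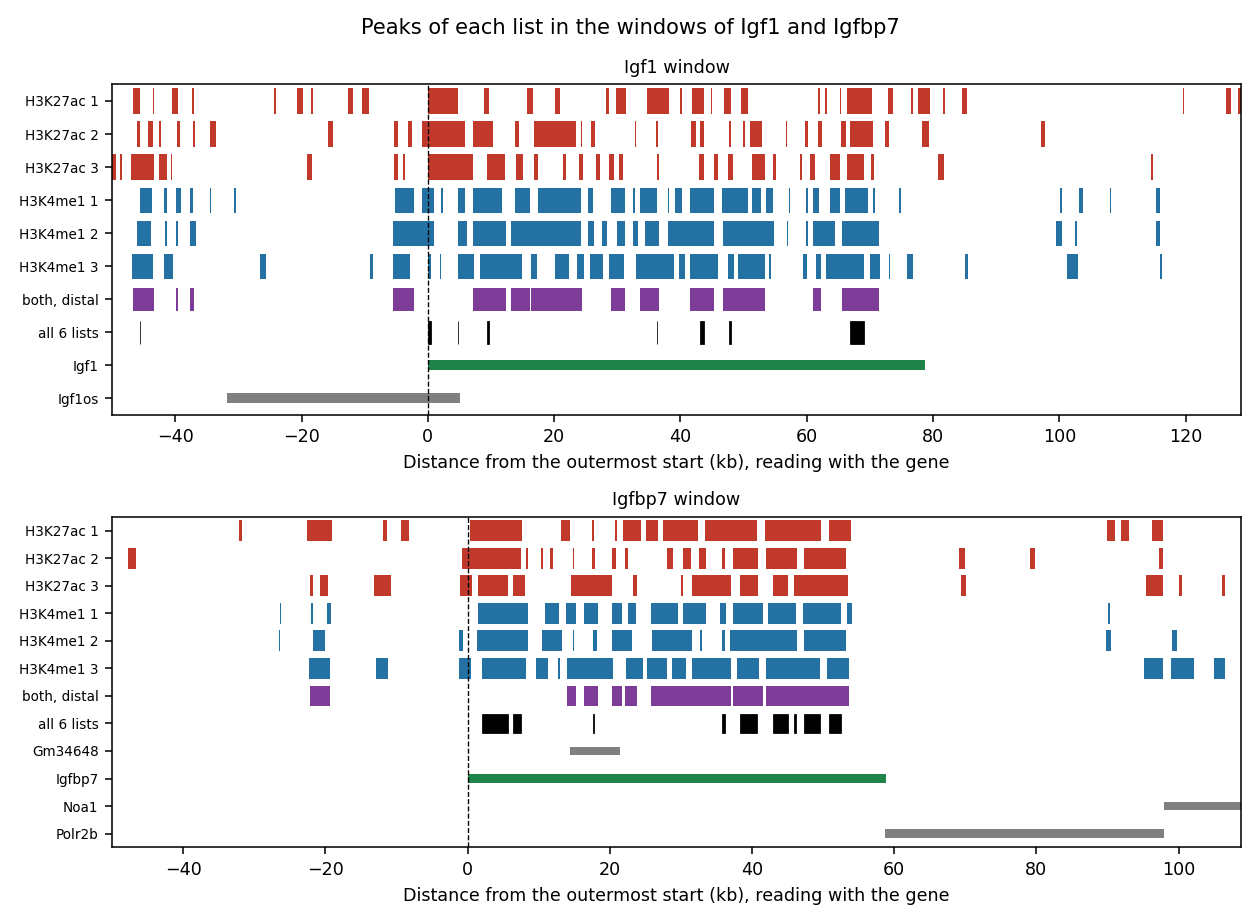
Peaks in the windows of Igf1 and Igfbp7, 1 row per replicate list, with joined distal regions that hold both marks in purple, stretches in all 6 lists in black, and gene bodies below (member in green). The axis is the distance in kb from the most upstream start. Peaks of both marks fill much of each body and thin out beyond it, and 9 stretches in all 6 lists lie within Igfbp7.

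Igfbp4 and Igfbp6 showed strong H3K27ac at the start with H3K4me1 beside it. Igfbp4, a secreted inhibitor of IGF action that proteases of the pappalysin family cut, had H3K27ac peaks at its most upstream start with fold enrichments of 1.90, 2.26 and 1.92, above 91.7%, 98.1% and 89.3% of the lists. The promoter window of that start was covered over 89.1%, 100% and 86.5% by H3K27ac. H3K4me1 covered 0%, 13.4% and 0% of it, and the member's H3K4me1 promoter call in all lists came from the window of an internal start. In the gene body H3K27ac covered 42.5%, 36.5% and 42.3% against 15.7%, 24.1% and 27.8% for H3K4me1, the reverse of the order in the receptor genes. At the stretch of 608 bp in all 6 lists, chr11:99044000-99044607, fold enrichment was 1.90, 2.08 and 1.92 for H3K27ac and 2.17, 2.10 and 1.91 for H3K4me1.

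Igfbp6, which prefers IGF2 as its ligand, had the highest promoter fold enrichment of H3K4me1 among the members in each of the 3 lists. Its H3K27ac peak over the start had fold enrichments of 2.01, 2.09 and 2.198 and covered 100%, 63.1% and 82.3% of the promoter window in replicates 1, 2 and 3. The H3K4me1 peak had 2.25, 2.02 and 2.24, above 99.5%, 96.3% and 99.6% of the lists, yet covered only 2.35%, 1.20% and 3.45% of the window. It began 954, 977 and 932 bp downstream of the start. The H3K4me1 call at this promoter therefore rested on the outer edge of the window, and the marks met next to it over 679 bp, in the intron printed above. The longest stretch in all 6 lists of the Igfbp6 window, 3890 bp at chr15:102101630-102105519, lay at Tns2, a tensin gene whose start had both marks in all lists. Spryd3, also in the window, had H3K27ac at its start in 3 lists and H3K4me1 in 2.

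Igfbp2, Igfbp3 and Igfbp5 had little of either mark. Igfbp2 and Igfbp5 are neighbours on chromosome 1 that point at each other. At Igfbp2, H3K4me1 covered 85.7%, 68.1% and 0% of the promoter window in replicates 1, 2 and 3, with fold enrichments of 1.72 and 1.62 where present. H3K27ac reached an Igfbp2 promoter window in replicate 2 only, with a peak of 241 bp. At Igfbp5, a binding protein that attaches to matrix, H3K4me1 was at the promoter in replicate 3 only, where it covered 51.7% of the window, and H3K27ac in no list. The 2 genes shared an H3K4me1 peak upstream of Igfbp5, with fold enrichments of 1.94, 2.28 and 1.71 in replicates 1, 2 and 3, above 92.4%, 99.8% and 66.8% of the lists. Another H3K4me1 peak lay inside the Igfbp5 body in all 3 lists, beginning about 2.9 kb after its start. Its fold enrichments were 1.85, 1.82 and 2.16 in replicates 1, 2 and 3. Igfbp3, the main carrier of IGFs in serum, had no H3K27ac peak in its body in any list and 1 H3K4me1 promoter peak, of 451 bp in replicate 2. None of these 3 genes had a base covered by all 6 lists.

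Over the whole windows, the mean of the 3 lists was higher for H3K4me1 than for H3K27ac at each member, but at Igfbp3, Igfbp4 and Igfbp6 the sign depended on the lists or the window used. At Igf1, H3K27ac covered 18.8%, 19.9% and 19.1% of the window, a mean of 19.3% ± 0.563 (SD, n = 3), and H3K4me1 28.7%, 34.3% and 31.9%, a mean of 31.6% ± 2.81 (SD, n = 3). At Igf2r, H3K27ac covered 8.18%, 7.47% and 3.71% and H3K4me1 17.4%, 19.5% and 14.7%. At Igf1r, H3K27ac covered 4.31%, 5.54% and 5.96% and H3K4me1 16.0%, 12.4% and 11.5%. In these 3 windows every H3K4me1 list was above every H3K27ac list, and so it was at low coverage for Igf2, Igfbp2 and Igfbp5. The largest value of these 3 was 4.95%, for H3K4me1 at Igfbp2 in replicate 3.

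The remaining 4 windows overlapped. At Igfbp7, H3K27ac covered 28.8%, 19.6% and 25.2% and H3K4me1 24.3%, 24.8% and 34.4%. At Igfbp6, H3K27ac covered 16.7%, 14.1% and 11.6% and H3K4me1 20.3%, 17.9% and 14.1%. At Igfbp4, H3K27ac covered 6.67%, 9.99% and 5.94% and H3K4me1 10.7%, 16.4% and 8.84%. The lowest H3K4me1 list of each was below the highest H3K27ac list. The mean difference at Igfbp4, 4.45 percentage points, was 2.24 to 6.01 when a replicate was left out and -17.9 in the gene body alone. At Igfbp3 both marks ranged widely, from 0.330% to 4.80% for H3K27ac and from 1.99% to 4.67% for H3K4me1. The sign of the mean difference at Igfbp3, 0.717 percentage points, turned to -0.356 without H3K27ac replicate 3 and to -0.0184 without H3K4me1 replicate 1. That at Igfbp6, 3.34 points, was -1.43 with 25 kb and -0.0262 with 100 kb on either side of the body. With 50 kb it was 1.92 to 5.00 when a replicate was left out. That at Igfbp7, 3.29 points, was 0.0183 without H3K4me1 replicate 3.

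**Figure D5:**
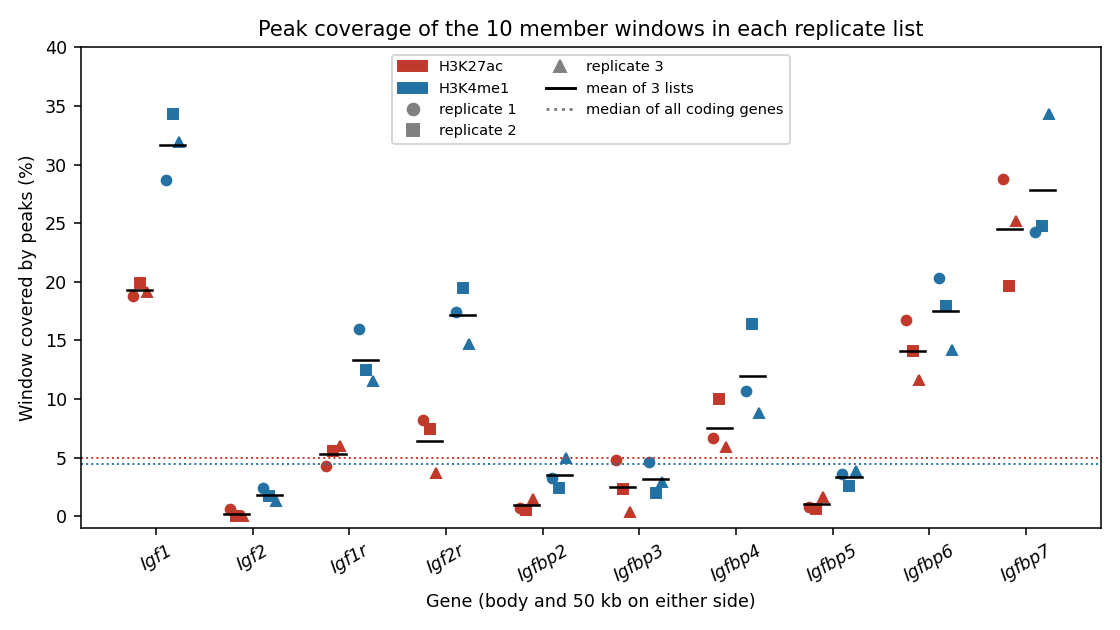
Percent of each member's window (body and 50 kb on either side) covered by the peaks of each replicate list, with H3K27ac in red, H3K4me1 in blue, a marker shape per replicate, a bar at the mean of 3 lists and a dotted line at the median of all protein-coding genes. Igf1 and Igfbp7 are highest for both marks, and in 6 windows all H3K4me1 lists lie above all H3K27ac lists.

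Altogether, 6 of 10 members had all 3 H3K4me1 lists above all 3 H3K27ac lists and 0 the opposite. Among all protein-coding genes the shares were 13.2% for H3K4me1 and 18.3% for H3K27ac. Each of the 6 gave an exact permutation p of 0.1, two-sided, the smallest that 3 lists against 3 allow, and an adjusted p of 0.317 over all genes, so none passed a threshold of 0.05. The median member was covered over 5.86% by H3K27ac and 12.6% by H3K4me1, and the median of all genes was 4.97% and 4.45%. Igfbp2 and Igfbp5 share most of a window, so their counts are not independent. In the gene bodies alone the lists were apart in 3 members with H3K4me1 higher (Igf1, Igf1r and Igf2r, against 10.7% of all genes) and in 1 with H3K27ac higher (Igfbp4, against 11.2%).

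Restricted to peaks whose −log10 p-value reached 1.3, all H3K4me1 lists were higher in 4 members, Igf1r, Igf2r, Igfbp2 and Igfbp5, against 6.84% of all genes, and all H3K27ac lists in 0, against 29.1% of all genes. At Igfbp2 and Igfbp5, whose windows are largely shared, H3K27ac was then at 0% in all 3 lists and H3K4me1 at 0.284% to 0.481%. This filter lowers the coverage by both marks. At Igf1 the lists then overlapped, with H3K27ac over 3.62%, 4.27% and 4.28% and H3K4me1 over 4.22%, 3.39% and 8.24% of the window. The ratio of the H3K4me1 mean to the H3K27ac mean was 1.303 there in place of 1.64 with all peaks, at Igf1r 2.28 in place of 2.53, and at Igf2r 3.62 in place of 2.67.

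H3K4me1 replicates 2 and 3 had more fragments than each H3K27ac library, and replicate 1, with 41891318, lay within the H3K27ac range of 40551842 to 42040809. The part of depth in the difference was not tested. H3K4me1 replicate 1 was above all 3 H3K27ac lists in 8 of 10 members, all but Igfbp3 and Igfbp7, against 28.4% of all genes. Among the lists called against IgG replicate 2, both H3K4me1 lists were above the H3K27ac list in 9 members, all but Igfbp3, against 34.5% of all genes. Between the 2 lists called against IgG replicate 3, H3K4me1 was higher in 10 members, against 44.5% of all genes. H3K27ac replicate 1 was the only list called against its IgG library and has no such comparison.

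Regions with both marks away from promoters were found at 5 members. Such a region joined overlapping stretches, each under at least 2 lists of 1 mark and clear of every promoter window of a protein-coding gene, so it held both marks but need not carry both along its whole length. There were 14 in the Igf1 window, 10 in that of Igf1r, 8 at Igfbp7, 6 at Igf2r and 2 at Igfbp4, which makes 40 in all, of 29893 over the genome. At least 1 such region was present in the windows of 54.9% of all protein-coding genes, and the median was 1 for all genes and for the members. Most lay inside the member itself, 10 of 14 at Igf1, 9 of 10 at Igf1r, 4 of 6 at Igf2r and 7 of 8 at Igfbp7. The longest joined regions were 6984 bp at Igf1, 20.96 kb from the first start, 10387 bp at Igf2r, 3426 bp at Igf1r and 11681 bp at Igfbp7. Sequence under at least 2 lists of each mark, promoters included, came to less than the joined regions at these 4 members, with 16538 bp in the whole Igf1 window against 47162 bp joined, 7835 bp at Igf2r against 23360 bp, 8451 bp at Igf1r against 17133 bp and 27454 bp at Igfbp7 against 36433 bp. It came to more at Igfbp4, with 1905 bp against 853 bp, and at Igfbp6, with 7991 bp and no joined region. The 2 regions of the Igfbp4 window lay in Tns4, a neighbouring tensin gene. Igf2, Igfbp2, Igfbp3, Igfbp5 and Igfbp6 had none.

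The overlap of the marks also differed in extent. Of the sequence under H3K27ac in at least 2 lists, the share also under H3K4me1 in at least 2 lists was 83.8% at Igf2r, 74.8% at Igfbp7, 70.1% at Igf1, 63.1% at Igfbp6, 58.9% at Igf1r and 30.6% at Igfbp4. In the other direction, 63.8% of the H3K4me1 sequence at Igfbp7 carried H3K27ac, against 43.3% at Igfbp6, 28.3% at Igf1, 25.4% at Igf2r, 18.8% at Igf1r and 16.9% at Igfbp4. H3K4me1 at Igfbp7 thus lay mostly with H3K27ac, while most of that at the other 5 of these members lay without it. Restricted to peaks whose −log10 p-value reached 1.3, only 7 distal regions with both marks were found, and without H3K27ac replicate 2 there were 26.

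The other genes of the IGF axis were counted at their promoters from a list of 34. H3K27ac was present in all 3 lists at 24 and H3K4me1 in all 3 at 12, and those 12 had both marks in all 6 lists. The downstream kinases and their regulators had H3K27ac in all lists at 14 of 14 and both marks at 9: Pik3ca, Pik3cb and Pik3r1, subunits of phosphoinositide 3-kinase, Pdpk1, Akt1 and Akt2, kinases it activates, and Gsk3b, Tsc2 and Mtor. Of 9 receptors and adaptors, 7 had H3K27ac in all lists, and Irs1 and Shc1, which bind activated receptors, had both marks. Irs4 had neither in any list. Of 8 extracellular genes, 2 had H3K27ac in all lists, and Htra1, a secreted protease that cuts IGF binding proteins, had both marks. Igfbp1, Igfals, Igfbpl1 and Pappa2 had neither. Igfbp1 lies next to Igfbp3, and its start had no peak of either mark. Of the 3 mRNA-binding Igf2bp genes, 1 had H3K27ac in all lists. These counts stand beside the 45.9% and 24.3% of all genes given above for H3K27ac and for both marks.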

How the data were processed

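Peak lists of 3 H3K27ac and 3 H3K4me1 libraries and 2 pooled lists were analysed, and the 3 IgG libraries entered only as controls. Per the labels, the authors used cutadapt, Bowtie2 and MACS2 with GRCm38.p5. Per the file headers, broad peaks were called from paired ends (MACS 2.2.7.1) on unique reads without duplicates, at p-values of 0.05 for strong and 0.1 for weak regions, and the larger library was scaled to the smaller. The pileup column is a deposited coverage signal. The deposited fold enrichment is a ratio of pileup to local background with a constant added to both, averaged over the broad region. The deposited p-value, also averaged over the region, and q-value are on the −log10 scale, and the q-value was not used. These columns described or filtered peaks and were not compared as levels between lists.

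Genes were those of GENCODE release 21 on GRCm38. A gene was marked when a peak overlapped the window of 1 kb either side of any start of its protein-coding transcripts (54361 starts) by at least 1 bp. Window coverage was the union of a list's peaks over the gene body and 50 kb on either side. Distal regions joined overlapping stretches of the 2 marks, each under at least 2 lists of its mark and outside promoter windows, and their length is that of the joined region. Coverage was compared between marks by exact permutation of the 6 lists (20 ways), two-sided, adjusted by Benjamini-Hochberg over 21853 genes. Promoters came from the RefSeq table, and regions from the RefSeq genome of GRCm38.p6. Marker lists, other IGF axis genes and motifs were counted without a test, and 1 gene of the axis is not reported here. Members, neighbouring genes and the longest stretch in all 6 lists were named by rule, other IGF axis genes only where both marks were in all 6 lists or neither was in any. Markers, Spryd3 and further stretches were named after their values were seen. The members and lists were chosen with earlier results of these data known. Interval code was tested on simulated data, where 0 of 300 windows and 0 of 900 consensus calls differed from a count base by base. Python 3.11.15, numpy 2.4.6 and scipy 1.17.1 were used.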

Additional observations from a re-analysis of the deposited data

How the results depend on the processing

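Alternatives were planned, except the comparisons within an IgG library and with H3K4me1 replicate 1 alone, which were chosen after seeing the data. Where no share of all genes is given here or above, none was computed, and the count cannot be set against other genes. Where the −log10 p-value had to reach 1.3, 3 members had neither mark at the promoter, 7 distal regions had both, and 4 members in place of 6 were higher for H3K4me1, as with a flank of 25 kb. At 2 or above in the 6 replicate lists, the members with promoter H3K27ac, H3K4me1 and both marks were 0, 0 and 0. Those with neither numbered 10, those with window coverage higher for H3K4me1 0, and distal regions with both marks 0. Within 250 bp of a start, 1 member had H3K4me1, 1 both marks and 3 neither. Within 3 kb, 7 had H3K4me1 and 5 both, and a wider window can only raise such counts for any gene. Where a peak had to cover 0.5 of a promoter window, 0 had H3K4me1, 0 both and 3 neither. In the gene body only, 1 member was higher for H3K27ac and 3 for H3K4me1, and within IgG replicate 3 all 10 were higher for H3K4me1. Distal regions numbered 19 by a consensus of all 3 replicates and 76 by any 1. Leaving out each replicate gave 5 to 6 members with H3K27ac, 3 to 4 with H3K4me1, 3 to 4 with both, 1 to 2 with neither (2 without H3K4me1 replicate 2 or 3), 0 to 0 with higher H3K27ac coverage, 6 to 8 with higher H3K4me1 coverage and 26 to 40 distal regions (26 without H3K27ac replicate 2). Paired by replicate number (replicate block), 8 members were higher for H3K4me1 and 0 for H3K27ac in every pair. No share of all genes was computed for this count. The deviations of same-numbered lists correlated at -0.0881, 0.319 and 0.468 over all genes. Between the marks, pairs with the same IgG library correlated at 0.319 to 0.468 and other pairs at -0.496 to 0.0716. Replicates 2 and 3 shared an IgG library between the marks, so these values cannot show whether the numbers pair the samples. Of 110 values of the members' coverage difference under alternatives, 79 moved by less than the spread between replicates, 31 moved by more, and 6 had the opposite sign, at Igfbp3, Igfbp4 and Igfbp6, none of them where the lists were apart over the whole window. The causes were not tested. A missing peak does not show a missing mark.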

Other observations

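H19, the imprinted noncoding RNA downstream of Igf2, lies outside the Igf2 window. No peak of the 6 replicate lists overlapped its body or its promoter window, and the pooled H3K4me1 list covered 17.2% of that window. Mrpl23, further along the same domain, had H3K27ac over 24.2%, 24.2% and 12.7% of its promoter window in replicates 1, 2 and 3. In the Igf2r domain, no peak of the 6 replicate lists lay in the body of Mas1. The body of Slc22a3, encoding an organic cation transporter, was covered by H3K4me1 over 6.12%, 4.85% and 2.47% and by H3K27ac over 0%, 0.624% and 0%.

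Within the member windows, the share of bases that 2 lists had in common, of the bases in either, was 0.315 to 0.322 for the 3 pairs of H3K27ac lists. It was 0.573 for the pair of H3K4me1 lists called against the same IgG library and 0.377 to 0.408 for the other 2 pairs. Between the marks it was 0.323 to 0.356 for the 3 pairs with the same IgG library and 0.210 to 0.295 for the 6 pairs with different ones, so lists of different marks with the same IgG library shared at least as much as H3K27ac replicates did. The part of the shared IgG library in this was not tested.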
